A study of Homo with 2 samples.

Results

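The integrin and laminin genes are the 38 genes whose symbols name an integrin α or β chain or a laminin α, β or γ chain, of 28363 genes in either count table of the study. They were chosen by symbol alone, and all 38 were present in both tables: 18 integrin α genes, 8 integrin β genes, 5 laminin α genes, 4 laminin β genes and 3 laminin γ genes. Integrins are receptors made of an α and a β chain that tie the cell's actin or keratin skeleton to the matrix outside. Laminins are trimers of an α, a β and a γ chain and form the sheet of the basement membrane, the layer of matrix under epithelia. Human pluripotent stem cells grow on laminin through a receptor made of the ITGA6 and ITGB1 products, and epithelia of the early embryo lay down and sit on basement membranes of their own.

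The study grew human blastoids, aggregates that resemble the blastocyst, from KhES1, a human embryonic stem cell line in long use. Cells that had grown on Matrigel, a basement membrane extract rich in laminin, were gathered in microwells for 24 h and then held for 4 days in a hydrogel. The medium was DMEM with 10% fetal bovine serum and 10 µM Y27632, an inhibitor of the kinase ROCK, which drives actomyosin contraction. The series used here holds 1 group of day 4 blastoids in 2 single-cell libraries, with no untreated or undifferentiated cells beside them, so the comparisons are between kinds of cells inside the libraries. The sources used here do not state whether the libraries came from separate cultures. The p-values measure how differences between groups of cells vary between these libraries, pooled over all groups in a fit. That spread may be technical.

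The count tables held 38665475 UMIs (unique molecular identifiers, each standing for 1 captured RNA molecule) over 1988 barcodes in library 1 and 45208758 over 2601 barcodes in library 2. A limit of 1000 or more genes detected and no more than 20% of UMIs from mitochondrial genes kept 937 and 1519 barcodes, of which 937 and 1517 remained after doublet calling, with medians of 35059 and 25012 UMIs. The tables shared 1 barcode, and 0 among those kept. Each UMI was put at random into 1 of 2 parts: the first clustered the cells and the second gave the levels and tests of classes below, so a gene was not tested on the UMIs that formed the clusters. Cells with trophectoderm or amnion markers (trophectoderm/amnion-like; clusters 0, 1, 2 and 4) made up 719 of 937 cells in library 1 (76.7%, 95% exact interval 73.9 to 79.4) and 934 of 1517 in library 2 (61.6%, 59.1 to 64.0). Cells with pluripotent epiblast markers (epiblast-like; cluster 7) numbered 61 (6.51%, 5.02 to 8.28) and 89 (5.87%, 4.74 to 7.17). A cluster led by PGF, HOPX and CYP19A1, genes of placental trophoblast, held 28 and 84 cells. It matched the syncytiotrophoblast list best, but only 2 of the 5 markers reached 10 CPM in library 2 (5 of 5 in library 1), so it is called the PGF-high cluster. The labels give the cell type as embryonic stem cells, yet 12 of 12 pluripotency markers stood at 10 CPM or more in the epiblast-like class, against 6 of 12 in the trophectoderm/amnion-like class. Trophectoderm or amnion markers at that level numbered 13 of 14 in the epiblast-like class too, but summed to 1097 and 954 CPM there, against 3462 and 3533 CPM in the trophectoderm/amnion-like class. Within the epiblast-like class, a sub-cluster of 57 cells matched the trophectoderm or amnion list best (14 of 14 markers) and one of 27 cells the primitive streak list, as described below. Neither name covers every leading gene: DCN, a mesenchyme marker, was among the 10 leading genes of cluster 0, and MIXL1, a primitive streak marker, among those of cluster 7. Shallow clusters stayed unnamed, of which cluster 3 was the largest, with 102 and 371 cells and a median of 2716 UMIs.

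Over all barcodes that passed, ITGB1, the β chain that pairs with most α chains, was the most abundant of the 38 genes. Its level was 303 ± 0.13 CPM (UMIs of the gene scaled to an equal total per library or class; SD, n = 2), and 88.6% and 86.4% of barcodes held at least 1 of its UMIs. ITGB5, which pairs with ITGAV as a vitronectin receptor, stood at 183 ± 8.40 CPM, and ITGB6, a β chain of epithelia that with ITGAV binds and activates latent TGF-β, at 81.1 ± 2.29 CPM. Because the chemistry reads the 3′ end once per molecule, these levels were not divided by gene length, and how well each transcript is captured may differ between genes. Among the α chains, 4 stood at 100 CPM or more: ITGA9, a receptor for tenascin and osteopontin, at 136 ± 7.23 CPM, ITGAV at 131 ± 8.40 CPM, ITGA2, a collagen receptor, at 119 ± 3.77 CPM and ITGA8, which binds nephronectin, at 100.4 ± 4.52 CPM. The laminin chains were led by LAMB1 at 180 ± 2.37 CPM and LAMC1 at 132 ± 3.59 CPM, the β and γ chains of most laminins. LAMA1, the α chain of early embryonic basement membranes, stood at 52.5 ± 1.64 CPM and LAMA5, the α chain of the laminins on which pluripotent stem cells are grown, at 41.8 ± 2.54 CPM.

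Of the 38 genes, 20 stood at 10 CPM or more, 4 between 2 and 10 CPM (ITGA7, LAMA2, LAMA3 and LAMB3) and 14 under 2 CPM. The 14 include ITGAL, ITGAM, ITGAX, ITGAD, ITGB2, ITGB3, ITGB7 and ITGA2B, chains known from leukocytes or platelets. ITGB2, the β chain shared by leukocyte integrins, had 15 and 16 UMIs in the libraries, in 1.49% and 1.05% of barcodes. ITGAE, known from T cells that lie in epithelia, stood at 31.0 and 32.6 CPM, whereas ITGB7, the β chain it is known to pair with, stood at 0.240 and 0.0683 CPM. The α chain was thus measured where its known partner was near 0. Summed over members, integrin α genes held 616 and 585 CPM, integrin β genes 613 and 595 CPM, laminin α genes 110 and 105 CPM, laminin β genes 200.2 and 205 CPM and laminin γ genes 148 and 142 CPM. The libraries were close for the abundant members, and the largest ratios between them belonged to genes of few UMIs.

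Some loci limit what a count can be assigned to, since the sources used here do not say whether the authors' counting used strand or introns. In RefSeq (GRCh38.p14), 10 of the 20 members at 10 CPM or more overlap another gene that has its own row in the tables. ITGA1 (chr5:52787916-52959209), at 10.4 and 11.6 CPM, overlaps PELO, at 16.7 and 16.3 CPM. ITGB4 (chr17:75721459-75757818), at 21.6 ± 0.33 CPM, overlaps GALK1, at 11.4 and 13.9 CPM, and ITGA7 (chr12:55684568-55716400), at 3.99 ± 0.10 CPM, overlaps BLOC1S1, at 71.7 and 78.7 CPM. ITGA9 (chr3:37452141-37823507), at 136 ± 7.23 CPM, overlaps ITGA9-AS1, at 23.4 and 23.3 CPM. These members are therefore less certain, ITGA9 above all where its own level is low. ITGB6 (chr2:160099671-160200272) and ITGA8 (chr10:15513954-15719922) overlap no such gene. LAMB1 and LAMB4 lie next to each other on chromosome 7, 8501 bases apart, with LAMB4 at 0.344 ± 0.0040 CPM.

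Trophectoderm/amnion-like cells and epiblast-like cells carried different sets of integrin chains and differed in the amount of laminin RNA. Of the 38 genes, 23 passed the filter on low counts; 14 of them were higher in trophectoderm/amnion-like cells, 5 were lower and 4 did not pass (edgeR quasi-likelihood test, adjusted p under 0.05). Of all 13188 genes tested, 34.7% were called, 17.4% higher and 17.3% lower. The median log2 fold change was 0.90 over the 23 members and 0.01 over all genes tested. The median over the members tested was 1.46 without the GATA3-high epiblast-like sub-cluster. Integrins split, with 7 of 15 tested higher and 5 lower, while 7 of 8 laminin chains tested were higher and 0 lower, LAMA2 being the one that did not pass. These counts include LAMB3, which had 1 UMI in epiblast-like cells and so passed the filter only through cells in which it was higher. Other members low in 1 class may also have passed through cells in which they were higher. Among them were ITGB6 and ITGA8, at means of 5.38 and 8.40 CPM in epiblast-like cells, and ITGA7, at 3.33 CPM in trophectoderm/amnion-like cells. The counts of calls lean on such members. The 15 genes that were not tested stood at no more than 4.60 CPM in either class, the highest being LAMA3 in trophectoderm/amnion-like cells. Median depth was 36782 and 32880 UMIs per trophectoderm/amnion-like cell, against 57576 and 50857 per epiblast-like cell. Mesenchyme markers summed to 2004 and 1976 CPM in trophectoderm/amnion-like cells, against 421 and 281 CPM in epiblast-like cells, with 0 of 11 markers at 0 in either class; their part in these differences was not tested. With cluster 0 left out for DCN among its leading genes, a choice made after the data had been seen, 19 members were called. That count is no test of the part of mesenchyme markers.

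**Figure D1:**
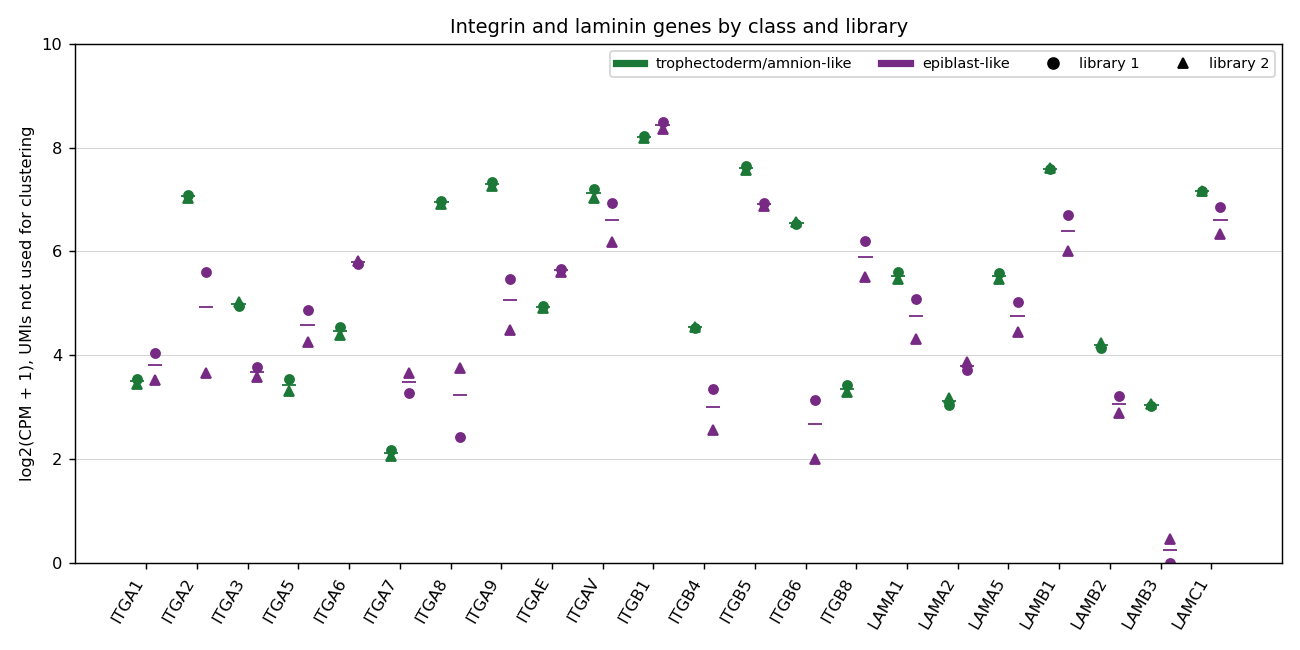
Level of 22 of the 23 members tested, as log2(CPM + 1) of the UMIs not used for clustering, in trophectoderm/amnion-like cells (green, left of each pair) and epiblast-like cells (purple, right); circles are library 1, triangles library 2 and dashes the log2 of the mean CPM + 1. ITGB6, ITGA8 and LAMB3 sit far apart between the classes, ITGB1 is at the top in both, and ITGB8 and ITGA6 are higher in epiblast-like cells.

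ITGB6 and ITGB8, β chains that both pair with ITGAV, differed between the classes in opposite directions. ITGB6 stood at 91.5 and 93.4 CPM in trophectoderm/amnion-like cells, against 7.75 and 3.01 CPM in epiblast-like cells. The groups did not overlap, and its log2 fold change was 4.25 (SE 0.32, adjusted p = 5.2e-10), or 3.65 and 4.97 in library 1 and library 2 alone. ITGB8, whose product with that of ITGAV also holds latent TGF-β, went the other way, at 9.72 and 8.72 CPM in trophectoderm/amnion-like cells and 72.2 and 44.5 CPM in epiblast-like cells, a log2 fold change of -2.54 (SE 0.29, adjusted p = 2.49e-07). Of all integrin β UMIs, ITGB6 took 15.1% ± 0.57 in trophectoderm/amnion-like cells and 0.977% ± 0.53 in epiblast-like cells, and ITGB8 took 1.50% ± 0.08 in trophectoderm/amnion-like cells and 10.7% ± 2.58 in epiblast-like cells (SD, n = 2). ITGB5 was higher by 0.79 (SE 0.24, adjusted p = 0.0137), at 199.6 and 190 CPM in trophectoderm/amnion-like cells against 122 and 117 CPM in epiblast-like cells. ITGAV, the α chain common to ITGB5, ITGB6 and ITGB8, stood at 146 and 130 CPM in trophectoderm/amnion-like cells and at 122 and 71.6 CPM in epiblast-like cells; its log2 fold change of 0.61 (SE 0.28) did not pass (adjusted p = 0.0962). It passed without the epiblast-like sub-cluster highest in GATA3, described below (1.79, adjusted p = 3.61e-06), and when the 2 parts of the UMIs were exchanged (1.33, adjusted p = 5.11e-04). ITGB1 differed little, at 299.6 and 289 CPM in trophectoderm/amnion-like cells against 360 and 329 CPM in epiblast-like cells (log2 fold change -0.14, SE 0.25, adjusted p = 0.72).

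The same contrast between the β chains was seen in shares of cells at equal depth. After each cell was thinned to 5000 UMIs, 35.6% (95% exact interval 32.0 to 39.3) and 33.4% (30.3 to 36.7) of trophectoderm/amnion-like cells had an ITGB6 UMI, against 1.69% (0.0429 to 9.09) and 2.25% (0.273 to 7.88) of epiblast-like cells. For ITGB8 the shares were 4.49% (3.07 to 6.31) and 3.51% (2.40 to 4.95) of trophectoderm/amnion-like cells, against 22.0% (12.3 to 34.7) and 21.3% (13.4 to 31.3) of epiblast-like cells. Neither pair of intervals overlapped in either library. These intervals cover counting error within a library only, since cells are not replicates. The shares also come from the same cells as the levels above. Thinning left out 28 and 52 trophectoderm/amnion-like cells and 2 and 0 epiblast-like cells. Without thinning, ITGB6 was found in 75.0% ± 1.98 of trophectoderm/amnion-like cells and 8.85% ± 1.39 of epiblast-like cells, and ITGB8 in 18.9% ± 1.07 of trophectoderm/amnion-like cells and 68.6% ± 9.63 of epiblast-like cells (SD, n = 2). The part of free RNA in the low ITGB6 share of epiblast-like cells was not tested.

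Among α chains that bind matrix other than laminin, 3 were higher in trophectoderm/amnion-like cells and ITGA5 was lower. ITGA8 stood at 124 and 120 CPM in trophectoderm/amnion-like cells, against 4.36 and 12.4 CPM in epiblast-like cells, a log2 fold change of 3.89 (SE 0.30, adjusted p = 6.92e-10), or 4.90 and 3.34 in single libraries. ITGA9 stood at 161 and 152 CPM in trophectoderm/amnion-like cells, against 43.6 and 21.5 CPM in epiblast-like cells (2.38, SE 0.35, adjusted p = 1.12e-05). ITGA2 stood at 136 and 131 CPM in trophectoderm/amnion-like cells, against 47.5 and 11.7 CPM in epiblast-like cells (2.32, SE 0.38, adjusted p = 4.86e-05). For all 3 genes, epiblast-like cells differed between the libraries more than trophectoderm/amnion-like cells did. The single-library log2 fold changes were 2.00 and 2.89 for ITGA9 and 1.63 and 3.54 for ITGA2. ITGA5, the fibronectin receptor chain, stood at 10.6 and 8.90 CPM in trophectoderm/amnion-like cells and 28.1 and 18.1 CPM in epiblast-like cells (-1.13, SE 0.28, adjusted p = 0.00268). That difference was lost without the sub-cluster highest in MESP1 (-0.31, adjusted p = 0.543). ITGA1, a collagen receptor chain, did not pass (-0.22, SE 0.31, adjusted p = 0.63), and its sign turned under other settings. FN1, fibronectin, named here for ITGA5 after its values had been seen, went the other way, at 1062 and 1044 CPM in trophectoderm/amnion-like cells and 514 and 313 CPM in epiblast-like cells (1.45, SE 0.33, adjusted p = 0.00144).

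The laminin receptor chains did not move as one group. ITGA6 stood at 21.1 ± 1.57 CPM in trophectoderm/amnion-like cells, against 54.3 ± 1.49 CPM in epiblast-like cells (SD, n = 2), a log2 fold change of -1.28 (SE 0.20, adjusted p = 2.32e-05). ITGA7, a laminin receptor chain of muscle, was also lower (-1.53, SE 0.41, adjusted p = 0.00591), at 3.33 ± 0.25 CPM in trophectoderm/amnion-like cells and 10.2 ± 2.09 CPM in epiblast-like cells (SD, n = 2). ITGA3, an epithelial laminin receptor chain, was higher, at 30.8 ± 1.22 CPM in trophectoderm/amnion-like cells against 11.8 ± 1.18 CPM in epiblast-like cells (1.49, SE 0.24, adjusted p = 3.83e-05). ITGB4, the β chain that pairs with ITGA6 in hemidesmosomes, was higher too, at 22.1 and 22.4 CPM in trophectoderm/amnion-like cells against 9.20 and 4.90 CPM in epiblast-like cells (1.80, SE 0.33, adjusted p = 1.46e-04; 1.36 and 2.24 in single libraries). So the 2 chains of the hemidesmosome receptor differed in opposite directions. ITGAE had a log2 fold change of -0.63 (SE 0.20, adjusted p = 0.0161), at 29.9 and 29.3 CPM in trophectoderm/amnion-like cells against 49.4 and 47.8 CPM in epiblast-like cells. The call was lost with the DESeq2 Wald test (-0.73, adjusted p = 0.0548), with no filter (-0.53, adjusted p = 0.0569) and without the MESP1-high sub-cluster (-0.56, adjusted p = 0.0542), at log2 fold changes near that value.

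**Figure D2:**
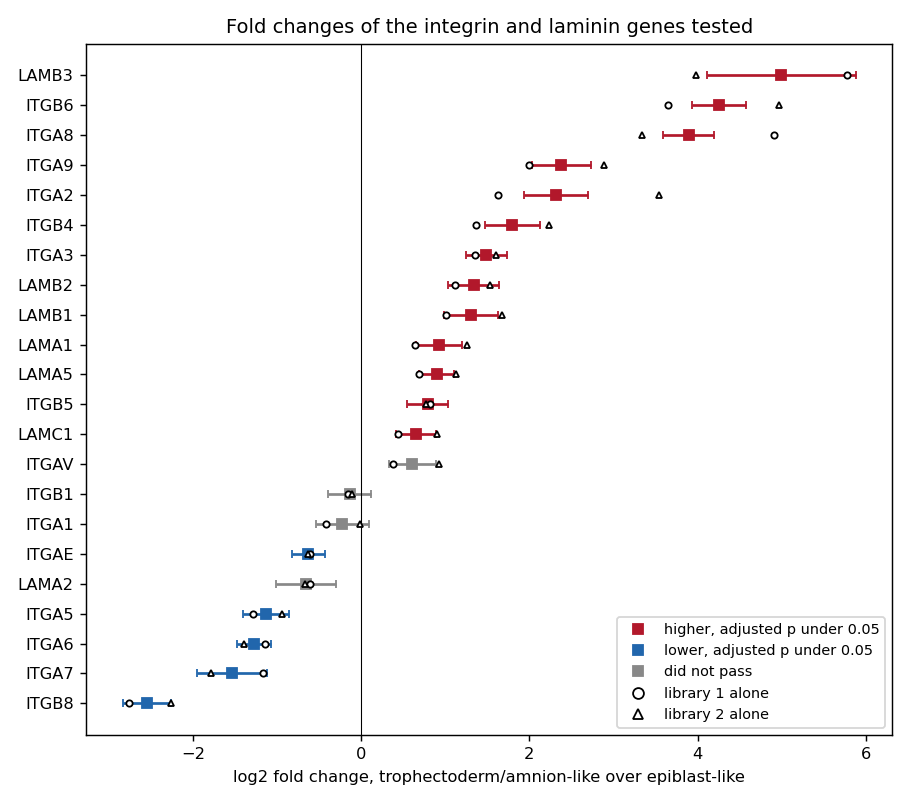
Log2 fold change of 22 of the 23 members tested, trophectoderm/amnion-like over epiblast-like, with squares for the edgeR estimate and bars for its SE; open circles and triangles are the folds of library 1 and library 2 alone. Of the 22, 13 lie to the right and passed (red), 5 lie to the left and passed (blue) and 4 did not pass (grey).

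Most laminin chains tested were higher in trophectoderm/amnion-like cells, across the α, β and γ families. Of the chains under the filter, LAMC3 was lower there, at 1.35 CPM against 4.12 CPM in epiblast-like cells. LAMA4 was lower too, at 0.185 CPM against 1.53 CPM, while LAMA3 and LAMB4 stood higher in trophectoderm/amnion-like cells. LAMB1 stood at 192 and 193 CPM in trophectoderm/amnion-like cells, against 103 and 63.7 CPM in epiblast-like cells (log2 fold change 1.30, SE 0.32, adjusted p = 0.00272). LAMC1 stood at 143 and 142 CPM in trophectoderm/amnion-like cells, against 114 and 79.5 CPM in epiblast-like cells (0.65, SE 0.24, adjusted p = 0.0364). For both chains, epiblast-like cells of library 1 stood above those of library 2, and the single-library log2 fold changes were 1.01 and 1.67 for LAMB1 and 0.44 and 0.91 for LAMC1. The LAMC1 call was lost under 4 alternatives (log2 fold changes of 0.55 to 0.65, adjusted p between 0.0555 and 0.129). LAMA1 stood at 45.3 ± 3.20 CPM in trophectoderm/amnion-like cells, against 25.9 ± 9.97 CPM in epiblast-like cells (0.93, SE 0.27, adjusted p = 0.0112; 0.64 and 1.26 in single libraries). Its call was lost with the DESeq2 Wald test (0.82, adjusted p = 0.138) and with all UMIs (0.83, adjusted p = 0.0933). LAMA5 stood at 45.0 ± 2.52 CPM in trophectoderm/amnion-like cells, against 26.1 ± 7.61 CPM in epiblast-like cells (0.90, SE 0.21, adjusted p = 0.00166; SD, n = 2). LAMB2 was higher by 1.34 (SE 0.30, adjusted p = 0.00122), at 17.2 ± 0.89 CPM in trophectoderm/amnion-like cells against 7.32 ± 1.29 CPM in epiblast-like cells, and missed when the parts of the UMIs were exchanged (0.78, adjusted p = 0.092). LAMA2, a chain of muscle and mesenchyme, did not pass (-0.66, SE 0.36, adjusted p = 0.165).

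LAMA3 and LAMB3, laminin chains of epithelia such as the skin, were low in both classes. LAMB3 had 232 UMIs in trophectoderm/amnion-like cells and 1 UMI in epiblast-like cells, a ratio of 34.2 with a 95% exact counting interval of 6.09 to 1358. LAMA3 was under the filter, at 4.60 ± 0.71 CPM in trophectoderm/amnion-like cells and 2.18 ± 1.71 CPM in epiblast-like cells. LAMB3 stood at 7.25 ± 0.15 CPM in trophectoderm/amnion-like cells.

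The make-up of each family's UMIs differed most among the integrins. In trophectoderm/amnion-like cells the α UMIs were spread over ITGA9 (23.8% ± 0.056), ITGAV (20.9% ± 0.84), ITGA2 (20.2% ± 0.29) and ITGA8 (18.6% ± 0.38). In epiblast-like cells ITGAV (28.3% ± 3.89), ITGA6 (16.7% ± 4.39) and ITGAE (14.8% ± 3.19) led. ITGB1 held 47.9% ± 0.16 of β UMIs in trophectoderm/amnion-like cells and 64.3% ± 2.21 in epiblast-like cells (SD, n = 2 throughout). Among laminin α UMIs, LAMA1 and LAMA5 held near equal shares in both classes, at 44.0% ± 1.24 and 43.8% ± 0.59 in trophectoderm/amnion-like cells and at 37.1% ± 6.21 and 37.8% ± 2.61 in epiblast-like cells. Within a class, their shares differed by less than the spread between libraries. LAMA2 held 7.48% ± 0.87 of laminin α UMIs in trophectoderm/amnion-like cells and 19.4% ± 5.86 in epiblast-like cells, though its fold change did not pass. LAMB1 held 88.6% ± 0.35 of laminin β UMIs in trophectoderm/amnion-like cells and 91.5% ± 1.56 in epiblast-like cells, and LAMC1 held 90.9% ± 0.63 of laminin γ UMIs in trophectoderm/amnion-like cells and 91.7% ± 1.79 in epiblast-like cells. The laminin β and γ make-up was thus closer between the classes than the integrin make-up.

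**Figure D3:**
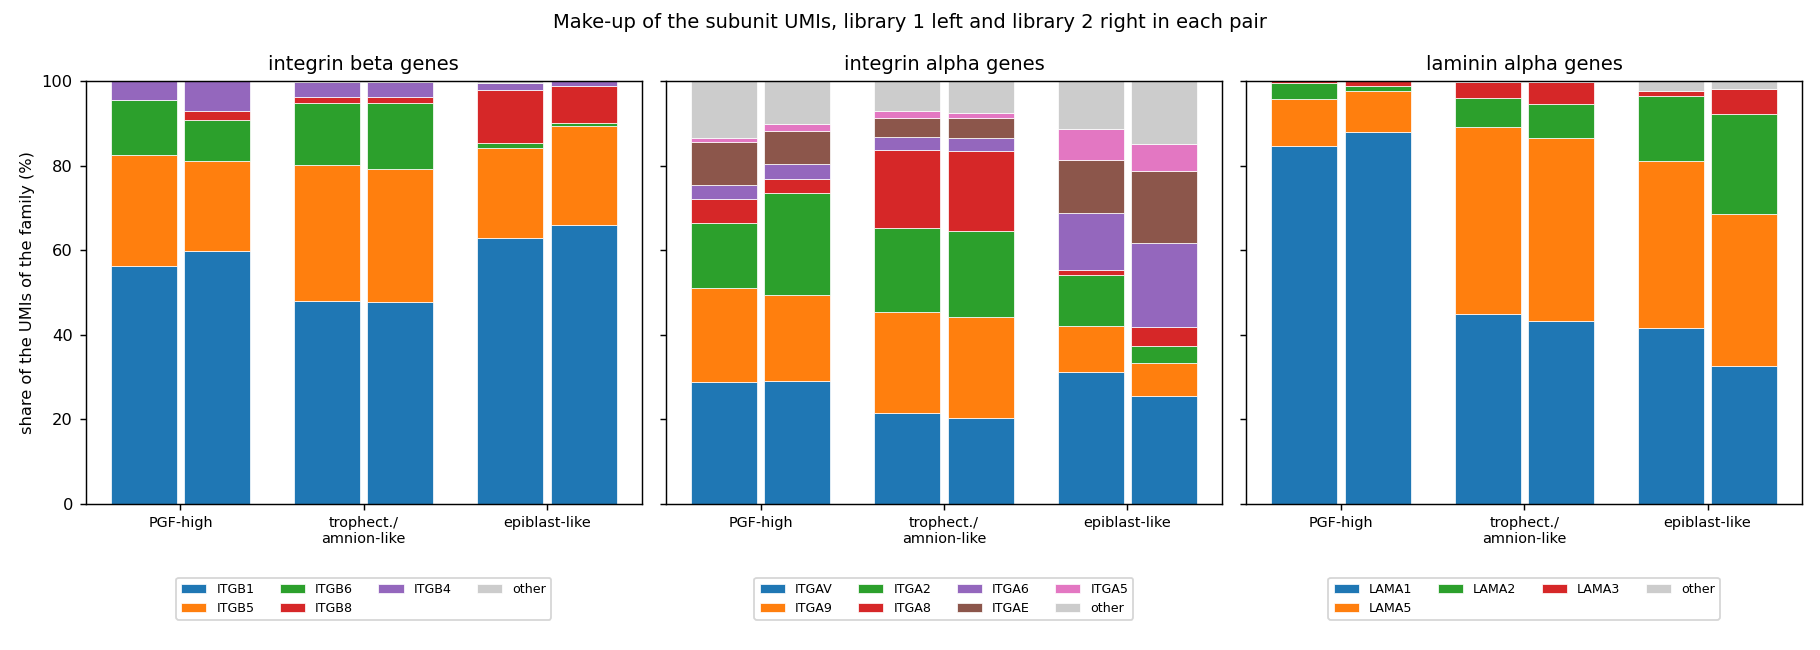
Share of the UMIs of the integrin β, integrin α and laminin α genes held by each gene, in percent, in the PGF-high cluster, trophectoderm/amnion-like cells and epiblast-like cells; in each pair the left bar is library 1 and the right bar library 2. ITGB6 (green, left panel) is nearly missing and ITGB8 (red) wide in epiblast-like cells, and LAMA1 takes 86.3% of laminin α UMIs on average in the PGF-high cluster.

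Whether chains were found in the same cell was described for 15 sets at 5000 UMIs per cell, 14 of them chains that assemble together and 1 the β chains ITGB6 and ITGB8, which do not. ITGAV and ITGB6 were both found in 16.1% (95% exact interval 13.4 to 19.0) and 14.3% (12.0 to 16.8) of trophectoderm/amnion-like cells. The product of the single shares was 14.4% and 13.0%. In epiblast-like cells both were found in 0 of 59 and 0 of 89 cells, which allows shares of up to 5.08% and 3.37% (3 cells of the total) at this depth only. Without thinning, both were found in 66.9% ± 2.38 of trophectoderm/amnion-like cells and 8.85% ± 1.39 of epiblast-like cells (SD, n = 2). ITGAV and ITGB5 were both found in 24.3% ± 1.22 of trophectoderm/amnion-like cells and in 10.7% ± 0.75 of epiblast-like cells (SD, n = 2). LAMA1, LAMB1 and LAMC1 were found together in 5.07% and 5.67% of trophectoderm/amnion-like cells, against 3.39% and 1.12% of epiblast-like cells. In 30 of 30 set and library combinations the product of the single shares lay inside the interval of the joint share, in trophectoderm/amnion-like cells, in epiblast-like cells and in the PGF-high cluster alike. At this depth, joint detection was not distinguishable from what the single shares give. Intervals and limits cover counting error only.

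The epiblast-like class was a mixture, and several integrins differed widely between its sub-clusters. The sub-clusters are named here by a leading gene or marker, and with fewer than 20 cells in some libraries they were described and not tested. The SOX2-high sub-cluster held 18 and 48 cells, with SOX2 at 179 and 169.5 CPM. The GATA3-high sub-cluster held 31 and 26 cells, with GATA3, a trophectoderm and amnion factor, at 127 and 180.0 CPM and POU5F1 still at 294 and 577 CPM. The MESP1-high sub-cluster held 12 and 15 cells, with MESP1, a factor of early mesoderm, at 372 and 235 CPM. Library 1 thus had a larger part of its epiblast-like cells in the GATA3-high sub-cluster than library 2.

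ITGA6 was highest in the SOX2-high sub-cluster, at 73.5 and 76.0 CPM, against 51.3 and 48.8 CPM in the GATA3-high and 23.8 and 13.1 CPM in the MESP1-high sub-cluster. ITGA5 and ITGB8 were highest in the MESP1-high sub-cluster, in both libraries. There ITGA5 stood at 116 and 41.9 CPM, against 11.7 and 17.5 CPM in the SOX2-high and 10.6 and 10.6 CPM in the GATA3-high sub-cluster. ITGB8 stood at 214 and 89.0 CPM in the MESP1-high sub-cluster, against 31.7 and 34.9 CPM in the SOX2-high and 51.3 and 39.0 CPM in the GATA3-high sub-cluster. The gap between libraries was wide in the MESP1-high sub-cluster, the smallest of the 3. ITGA8 was listed at 0 UMIs in the SOX2-high sub-cluster in both libraries and stood at 20.8 and 47.1 CPM in the MESP1-high sub-cluster.

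Of the 3 sub-clusters, the GATA3-high one stood nearest to the trophectoderm/amnion-like class for ITGAV, ITGA2 and LAMA5, while ITGB6 and ITGA8 stayed low in it. ITGAV stood there at 189 and 107 CPM, against 40.1 and 35.8 CPM in the SOX2-high and 41.6 and 73.3 CPM in the MESP1-high sub-cluster. ITGA2 stood there at 82.3 and 17.7 CPM, against 8.35 and 8.74 CPM in the SOX2-high sub-cluster. LAMA5 stood there at 41.6 and 36.4 CPM, against 23.4 and 10.5 CPM in the SOX2-high and 11.9 and 5.23 CPM in the MESP1-high sub-cluster. ITGB6, by contrast, stood at only 14.2 and 4.43 CPM in the GATA3-high sub-cluster, and ITGA8 at 1.77 and 13.3 CPM. ITGA9 separated the SOX2-high sub-cluster, at 3.34 and 4.37 CPM, from the GATA3-high, at 57.5 and 31.9 CPM, and the MESP1-high, at 68.4 and 41.9 CPM. ITGB1 was lowest in the SOX2-high sub-cluster, at 235.5 and 245 CPM, and stood between 359.9 and 427 CPM in the others.

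**Figure D4:**
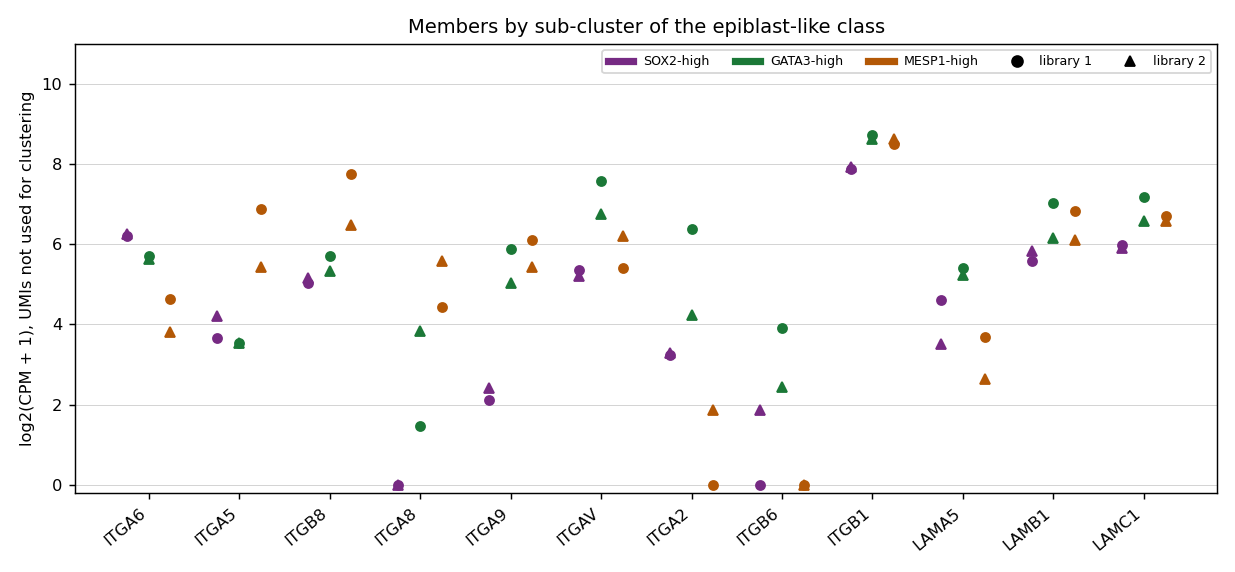
Level of 12 members in the sub-clusters of the epiblast-like class, as log2(CPM + 1) of the UMIs not used for clustering; circles are library 1 and triangles library 2. ITGA6 is highest in SOX2-high cells, ITGA5 and ITGB8 in MESP1-high cells and ITGAV, ITGA2 and LAMA5 in GATA3-high cells, while ITGA8 is at 0 in SOX2-high cells.

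Within the trophectoderm/amnion-like class, each of the 4 clusters was tested against the mean of the others, over 25 members that passed the filter. Of the 100 pairs of a member and a cluster, 15 passed, 8 higher and 7 lower. Over all genes tested, 13.6% of 59164 pairs passed, 7.50% higher and 6.06% lower, so members were called at about the rate of all genes. Cluster 1, led by TMEFF2, KHDRBS2 and ADAMTS20, was higher in ITGB6, ITGA8, ITGA9, ITGB4 and LAMA3, and lower in ITGAE. Cluster 0, which had DCN among its leading genes beside mitotic genes, was lower in the same 5 genes. For ITGA8 the log2 fold changes were -1.06 in cluster 0, 0.47 in cluster 1, 0.40 in cluster 2 and 0.19 in cluster 4. Each cluster entered the mean that the others were set against, so the calls in clusters 0 and 1 are not independent. Of these calls, ITGA8 in cluster 1 was lost with all UMIs (0.49, adjusted p = 0.0687) and LAMA3 in cluster 0 with no library block (-1.64, adjusted p = 0.0547). ITGA9 stood at 205 and 204 CPM in cluster 1 (log2 fold change 0.71, SE 0.17, adjusted p = 0.00658) and at 94.3 and 87.2 CPM in cluster 0 (-0.83, SE 0.20, adjusted p = 0.00672). ITGB4 stood at 30.7 and 32.3 CPM in cluster 1 (0.97, SE 0.18, adjusted p = 4.35e-04) and at 9.37 and 11.4 CPM in cluster 0 (-1.10, SE 0.25, adjusted p = 0.00317). ITGB6 also passed in cluster 2, led by NPY and COL12A1, at 119 and 116 CPM (0.75, SE 0.12, adjusted p = 1.12e-04), and was lower in cluster 4, led by TOP2A and other cell cycle genes, at 60.6 and 63.9 CPM (-0.48, SE 0.14, adjusted p = 0.0207; 0.0681 with all UMIs). Cluster 2 was also higher in ITGA5 (0.62, adjusted p = 0.0463) and ITGA3 (0.40, adjusted p = 0.0333), and the ITGA5 call was lost with no library block (adjusted p = 0.0598) and with all UMIs (0.0729). ITGB6 stood at 49.6 CPM or more in each of the 4 clusters and both libraries, against at most 7.75 CPM in epiblast-like cells.

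The PGF-high cluster differed from trophectoderm/amnion-like cells in ITGA8 and in the make-up of its laminin α chains. This comparison was added after the data had been seen. Of the 23 members tested, 2 were higher and 2 lower (17.4%). Of all genes tested, 20.3% were called, 10.9% higher and 9.35% lower, so the count of 4 calls was near the rate of all genes. The median log2 fold change was -0.45 over the members tested, most of which did not pass, and -0.02 over all genes tested. LAMA1 stood at 182 and 183 CPM in the PGF-high cluster, against 47.6 and 43.0 CPM in trophectoderm/amnion-like cells (log2 fold change 2.08, SE 0.25, adjusted p = 1.72e-06). LAMA5 stood at 23.7 and 20.2 CPM in the PGF-high cluster, against 46.8 and 43.3 CPM in trophectoderm/amnion-like cells (-0.98, SE 0.24, adjusted p = 0.00602), and missed when the parts of the UMIs were exchanged (-0.81, adjusted p = 0.0588). LAMA1 thus held 86.3% ± 2.29 of laminin α UMIs in the PGF-high cluster, against 44.0% ± 1.24 in trophectoderm/amnion-like cells (SD, n = 2). LAMB1 (0.24, SE 0.31, adjusted p = 0.621) and LAMC1 (-0.45, SE 0.24, adjusted p = 0.199) did not pass. ITGA8 stood at 19.4 and 15.1 CPM in the PGF-high cluster, against 124 and 120 CPM in trophectoderm/amnion-like cells (-2.78, SE 0.30, adjusted p = 4.37e-07). ITGB4 was higher by 0.82 (SE 0.26, adjusted p = 0.0314), a call that the DESeq2 Wald test did not give (adjusted p = 0.257). ITGA2 (-0.61, SE 0.36, adjusted p = 0.242) and ITGA9 (-0.80, SE 0.33, adjusted p = 0.0932) did not pass, but were lower with no filter, with parts exchanged and with doublets kept (adjusted p at most 0.041 for ITGA2 and 0.0473 for ITGA9). ITGB6 did not pass either (-0.32, SE 0.23, adjusted p = 0.355), but was lower with parts exchanged (-1.46, adjusted p = 8.28e-04). LAMB3, on 7 UMIs in the PGF-high cluster (-1.47, adjusted p = 0.104), was called lower with all UMIs, parts exchanged and doublets kept. LAMB2 (-0.86, adjusted p = 0.0725) was called lower with no library block (adjusted p = 0.0357). Median depth in the PGF-high cluster was 67547 UMIs per cell in library 1 and 22167 in library 2, and LAMA1, LAMA5 and ITGA8 were alike in both libraries.

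**Figure D5:**
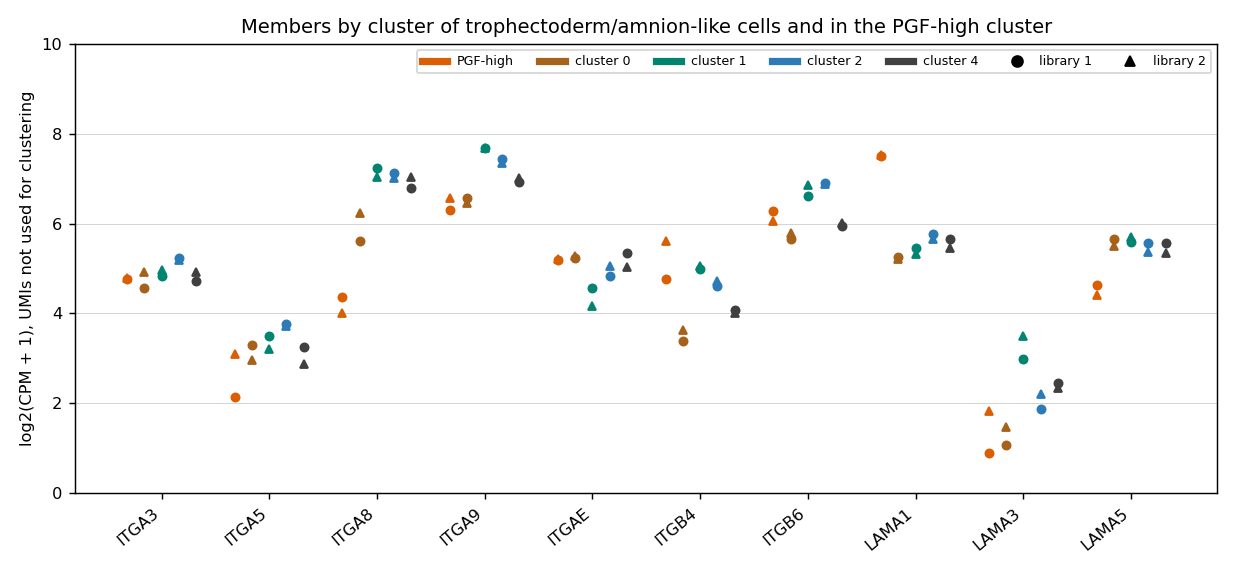
Level of 10 members in the PGF-high cluster (orange) and in clusters 0, 1, 2 and 4 of the trophectoderm/amnion-like class, as log2(CPM + 1) of the UMIs not used for clustering; circles are library 1 and triangles library 2. LAMA1 is highest and ITGA8 lowest in the PGF-high cluster, and ITGB6, ITGA9 and ITGB4 are lower in cluster 0 than in cluster 1.

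The genes that act beside integrins and laminins were taken from 4 lists, compared between trophectoderm/amnion-like and epiblast-like cells. In the adhesion plaque, the layer of talin, kindlin, vinculin and partners on the inner face of integrins, 10 of 25 genes tested were higher in trophectoderm/amnion-like cells and 3 lower (median log2 fold change 0.50). The kindlin FERMT1 was higher (2.31, SE 0.22, adjusted p = 2.81e-08), at 58.9 and 56.3 CPM in trophectoderm/amnion-like cells against 14.5 and 10.5 CPM in epiblast-like cells. KANK4, a talin-binding protein, was higher by 4.70 (SE 0.31), at 110 ± 0.54 CPM in trophectoderm/amnion-like cells against 4.66 ± 2.32 CPM in epiblast-like cells. The parvins, which link integrins to actin, differed in opposite directions: PARVA was higher by 1.76 (SE 0.23) and PARVB had a log2 fold change of -2.04 (SE 0.41).

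Of the integrin ligands other than laminins and collagens, 6 of 16 tested were higher and 7 lower (median 0.34). NPNT, nephronectin, the ligand of the receptor made of the ITGA8 and ITGB1 products, was higher, at 31.8 ± 2.53 CPM in trophectoderm/amnion-like cells against 3.96 ± 0.80 CPM in epiblast-like cells (3.05, SE 0.33, adjusted p = 1.25e-07). TGFBI, a matrix protein that integrins bind, was higher by 4.70 (SE 0.32), at 279 ± 9.83 CPM in trophectoderm/amnion-like cells against 11.7 ± 4.76 CPM in epiblast-like cells. POSTN, periostin, was lower, with a log2 fold change of -3.44 (SE 0.36). Of the basement membrane partners of laminins, 4 of 13 were higher and 5 lower (median -0.42). The nidogens, which link laminin to collagen IV, differed in opposite directions. NID2 stood at 36.7 and 32.8 CPM in trophectoderm/amnion-like cells against 7.26 and 4.14 CPM in epiblast-like cells (2.73, SE 0.31, adjusted p = 2.34e-07). NID1 stood at 2.05 and 2.08 CPM in trophectoderm/amnion-like cells against 12.1 and 17.0 CPM in epiblast-like cells (-2.72, SE 0.39, adjusted p = 1.06e-05). The collagen IV chains COL4A1 (-2.06, SE 0.22) and COL4A2 (-1.67, SE 0.21) were lower. Of the other collagen IV chains on the list, COL4A6 was lower (-1.42, SE 0.21, adjusted p = 1.27e-05). COL4A5 did not pass (-0.42, SE 0.24, adjusted p = 0.181), and both are named here after their values had been seen. Thus most laminin chains tested, and NID2, were higher in the same cells in which COL4A1, COL4A2, COL4A6 and NID1 were lower.

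Of the laminin receptors that are not integrins, with hemidesmosome partners, 3 of 11 were higher and 3 lower (median -0.08). SDC4, a syndecan, was higher (1.08, SE 0.20, adjusted p = 1.55e-04), as were BCAM, which binds LAMA5-containing laminins (0.82, SE 0.28, adjusted p = 0.0271), and DAG1, dystroglycan (0.62, SE 0.21, adjusted p = 0.0288). With the DESeq2 Wald test BCAM (adjusted p = 0.213), DAG1 (0.0877) and SDC1 (0.130) did not pass. SDC1, the syndecan also used as a syncytiotrophoblast marker here, was lower (-2.40, SE 0.68, adjusted p = 0.00811), at 1.93 ± 0.12 CPM in trophectoderm/amnion-like cells against 10.6 ± 2.02 CPM in epiblast-like cells (SD, n = 2). With 34.7% of all genes called in this comparison, the shares called in the 4 lists, 52.0%, 81.2%, 69.2% and 54.5%, are descriptions and were not tested as sets.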

How the data were processed

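The authors deposited raw UMI counts per gene and barcode for each library, made with the Chromium 3′ v3.1 chemistry per the labels' protocols and with Cell Ranger 9.0.0 on GRCh38 per the submitters' processing notes. The deposited tables hold no barcode with fewer than 200 genes and no gene seen in fewer than 2 barcodes. Scrublet (scanpy 1.11.5; expected rate 0.8% per 1000 barcodes) marked 0 and 2 barcodes as doublets, so doublets may remain. Part A of a random 50% split of UMIs was clustered (2000 variable genes, 30 principal components, 15 neighbours, Leiden at resolution 0.5; 0.3 for sub-clusters). Clusters were named from marker lists with at least 3 markers at 10 CPM in each library, and those under 1/3 of their library's depth stayed unnamed. Part B was summed per library and class, and the 25556 genes in both tables entered edgeR 4.0.16 (TMM, filterByExpr, a library block, the quasi-likelihood test and Benjamini-Hochberg adjustment at 0.05). The fit held 10 sums of 5 classes or clusters of at least 20 cells in both libraries, with 4 residual degrees of freedom, and that of clusters 16 sums with 7. SEs are the fold divided by the square root of F. DESeq2 1.42.0 was an alternative. The block pairs classes within a library. On simulated counts for this comparison (11938 genes tested), edgeR recovered 91 of 102 genes at 2-fold and 98 of 98 at 4-fold, with 13 false calls. The simulated classes shared the same profile apart from the changed genes, which were drawn from genes above a low count. Their spread followed the fitted trend alone, so these rates need not hold for the real comparison. Single-library folds used a prior count of 0.5. The members, lists and naming rule (members at 10 CPM or more in either class or called; per partner list up to 4 called genes of largest fold) were chosen with earlier results of these data known. Values of 1 member are not reported here, though counts over all members include it. No sequences were used here.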

Additional observations from a re-analysis of the deposited data

Results flagged for a closer look

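In 2 clusters of 6 cells each, seen in library 2 alone and in no test, some members stood above their level in trophectoderm/amnion-like cells. In cluster 6, led by MMP9, IL24 and LTB and with a median of 2468 UMIs per cell, ITGA2 stood at 1919 CPM on 47 UMIs, against 133 CPM in trophectoderm/amnion-like cells. ITGAV stood there at 490.0 CPM on 12 UMIs, against 138 CPM, and ITGA1 at 367.5 CPM on 9 UMIs, against 10.3 CPM. In cluster 9, ITGA2 and LAMB1 each stood at 720.5 CPM on 5 UMIs, against 133 and 192 CPM in trophectoderm/amnion-like cells. With no such cells in library 1, none of these values has a replicate. The levels pool the UMIs of all cells in a cluster, so deeper cells weigh more and a value may rest on few of them.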

How the results depend on the processing

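Between 15 and 20 of the 23 members tested were called between trophectoderm/amnion-like and epiblast-like cells under the alternatives; DESeq2's size factors gave 18 calls, its Wald test 15, no filter 19 and no replicate block 19. With size factors the median of all genes was -0.09 (log2), against 0.01 with TMM. The median over the members was between 0.77 (all UMIs) and 1.27 (parts exchanged), apart from 1.46 without the GATA3-high sub-cluster, against 0.90. Members called lower numbered 3 without the MESP1-high sub-cluster, a choice made after seeing the data, against 5. ITGA1 turned to 0.21 with the UMI parts exchanged and 0.15 without the GATA3-high sub-cluster, and ITGB1 to 0.052 and 0.15; neither passed. ITGA5, ITGAE, LAMA1, LAMB2 and LAMC1 were among the members that lost their call under at least 1 alternative. Partner ligands called lower numbered 3 without the GATA3-high sub-cluster, against 7. Basement membrane genes called lower numbered 8 with low-depth clusters counted in, against 5. Of the non-integrin receptors, 1 was called higher with size factors, with the Wald test and without the MESP1-high sub-cluster, and 5 without the GATA3-high sub-cluster, against 3; 1 was called lower with the Wald test and with no filter, against 3. For the PGF-high cluster, 7 members were called with parts exchanged or doublets kept, against 4; 1 was higher with the Wald test, against 2; 4 were lower with no filter and 5 with parts exchanged or doublets kept, against 2; LAMA5 then missed with parts exchanged (adjusted p = 0.0588), and ITGA5 (0.34) and LAMA2 (0.0927) turned. Cluster pairs called numbered 23 with no filter, against 15. ITGAV and ITGB6 were found together in 4.02% of trophectoderm/amnion-like cells at 2000 UMIs and 66.9% with no thinning, against 15.2% at 5000. The causes were not tested, beyond depth for the thinned shares. The number of members at 10 CPM or more was 20 without either replicate. With 1 library no residual degrees of freedom are left, and single-library folds kept the direction of all 19 calls. Sub-cluster values rest on as few as 12 cells.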
